A study of Mus musculus with 27 samples.

Results

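Alpha and beta tubulin are the building blocks of microtubules, and 10 of the mouse genes that encode them were followed through liver injury in hepatic stellate cells (HSCs), the retinoid-storing pericytes of the liver that become the main collagen-producing cells when the organ is damaged. The genes were the alpha tubulins Tuba1a, Tuba1b, Tuba1c and Tuba4a and the beta tubulins Tubb2a, Tubb2b, Tubb3, Tubb4b, Tubb5 and Tubb6, matched by Ensembl gene ID. They were chosen by a measured pattern: the level of Tuba1c was near 0 in healthy cells and high after injury. The difference of Tuba1c between healthy and injured HSCs is therefore a description without a test, and only the 9 others are counted in comparisons with healthy cells. The 10 genes were taken from a table of 53379 genes. Of these 18758 had enough counts to be tested, among them 9 of the 10 tubulins. Tubb2b had no count in any of the 27 libraries.

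Bulk RNA sequencing was performed on uncultured HSCs of male Balb/c mice, sorted from liver by the ultraviolet fluorescence of their retinoids, in 7 groups. Healthy mice (n = 4) of 10 to 12 weeks were not injected. Acute groups received 1 intraperitoneal injection of carbon tetrachloride (CCl4, a hepatocyte toxin) at 0.5 µL per g in mineral oil at the same age, and HSCs were collected 24 h (n = 3), 72 h (n = 4) or 7 d (n = 4) later. Chronic groups received the same dose semi-weekly for 4 weeks from the age of 8 to 10 weeks, and HSCs were collected at 24 h, at 72 h and at 14 d from the final injection (n = 4 each). An oil-injected group was not analysed here, so effects of CCl4 and of the oil injection cannot be told apart. Chronic groups were collected after the 4-week course, so their age at collection differed from that of healthy and acute mice. Age and the chronic course cannot be told apart either. The repeats were separate experiments according to the study.

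Microtubules are hollow filaments of alpha and beta tubulin dimers. They set cell shape, carry vesicles to the surface and form the mitotic spindle, and newly made tubulin is folded by the chaperonin CCT and by tubulin cofactors before it joins a filament. The genes encode near-identical proteins that differ mostly in their acidic tail, where many enzymes and motor proteins bind. Stellate cells spread and enlarge when they become myofibroblast-like, a change of shape in which the cytoskeleton is rebuilt.

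How alike the genes are sets how well short reads can tell them apart. Tuba1a (ENSMUSG00000072235), Tuba1b (ENSMUSG00000023004) and Tuba1c (ENSMUSG00000043091) lie close together on chromosome 15, and Tuba4a (ENSMUSG00000026202) lies on chromosome 1, in GRCm38 with GENCODE M21 gene models. Over the whole coding sequence, Tuba1c was 98.4% identical to Tuba1b and 97.6% to Tuba1a, while Tuba4a was between 85.3% and 85.9% identical to the 3 alpha-1 genes.

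Among the beta genes, Tubb2a (ENSMUSG00000058672) and Tubb2b (ENSMUSG00000045136), neighbours on chromosome 13, are the pair that reads could confuse. A stretch of the coding sequence is shown for them, to let the differences that a read can see be compared, and for Tubb4b (ENSMUSG00000036752) and Tubb5 (ENSMUSG00000001525), with capitals where a base differs from Tubb2a. It has the length of 1 read, 75 bases, starts at coding base 601 of each gene and lies in 1 exon (GRCm38). All 4 genes are on the minus strand.
Tubb2a, chr13:34075131-34075205: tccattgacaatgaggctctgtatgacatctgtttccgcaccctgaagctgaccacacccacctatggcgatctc
Tubb2b, chr13:34128134-34128208: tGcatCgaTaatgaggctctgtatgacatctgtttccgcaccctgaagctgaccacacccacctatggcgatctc
Tubb4b, chr2:25222971-25223045: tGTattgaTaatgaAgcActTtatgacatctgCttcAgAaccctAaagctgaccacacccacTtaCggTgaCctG
Tubb5, chr17:35835642-35835716: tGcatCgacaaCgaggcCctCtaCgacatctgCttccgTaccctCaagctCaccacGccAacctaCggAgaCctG
Tubb2b had 3 differing bases, Tubb4b 15 and Tubb5 16. Tubb3 (ENSMUSG00000062380), on chromosome 8, had 11 in the same stretch.

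Tubb6 (ENSMUSG00000001473) lies on chromosome 18 and is described by its counts alone. All 75-base stretches of the gene models were compared with those of every other gene. Of the stretches of Tuba1a 70.4% occurred in another gene as well, of Tuba1b 70% and of Tuba1c 48.9%, of which 40.3% of its stretches were shared with Tuba1b. Of Tubb2a 43.2% were shared, mostly with Tubb2b, of Tubb4b 29.9%, mostly with the pseudogene Tubb4b-ps1, and of Tuba4a 33.4%, with the overlapping gene Stk16. Tubb3, Tubb5 and Tubb6 shared 0 stretches. How the study's processing treated reads that fit several genes is not given in the sources used here, so the counts of the alpha-1 genes, Tubb2a, Tubb4b and Tuba4a are uncertain in how they were split, and those of Tubb3, Tubb5 and Tubb6 are not exposed to identical reads of this length.

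Libraries held between 6.31 and 13.1 M counts. All 4 chronic 14 d libraries and replicates 1 and 2 of both chronic 24 h and chronic 72 h held under 9 M, and no healthy or acute library did. Summed markers of HSCs lay between 30300 and 49600 CPM (counts scaled to the library size, after TMM) in healthy, 16900 to 21900 in acute 72 h and 16500 to 19500 in chronic 24 h libraries. Markers of other cells were also present. Cholangiocyte markers summed to 56.1 to 103 CPM in healthy and 758 to 4800 in acute 7 d libraries, macrophage markers to 155 to 625 and 828 to 3120, and hepatocyte markers to 747 to 4970 in healthy, 72.9 to 409 in acute 24 h and 2350 to 12500 in chronic 14 d libraries. The healthy range and the highest injured library were 6.89 to 22.8 and 286 for B cell markers, 0.39 to 2.18 and 52.1 for neutrophil markers, 1.91 to 5.08 and 42.7 for T and NK cell markers, 150 to 469 and 652 for endothelial markers, and 78.1 to 145 and 547 for mesothelial and portal fibroblast markers. Their part in the tubulin values was not tested. In bulk samples, fewer cells of a type and less RNA per cell cannot be told apart.

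Tuba1c, a widely expressed alpha tubulin, was close to 0 in healthy HSCs, with 0.816, 0.683, 0.506 and 1.21 CPM in the 4 libraries. These values rest on 9, 7, 6 and 14 counts. At 24 h after acute CCl4 the 3 libraries held 477, 539 and 450 CPM, from 5355, 6209 and 5128 counts. None of the 3 came near a healthy library. At 72 h after acute CCl4 the values were 364, 366, 286 and 296 CPM, and at 7 d they were 133, 109, 156 and 156 CPM. The acute groups thus lay in the order 24 h, 72 h and 7 d from high to low, with no overlap between neighbours. In chronic injury the 24 h libraries held 277, 320, 386 and 411 CPM and the 72 h libraries 152, 137, 112 and 171 CPM, again without overlap.

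The chronic 14 d group did not hold 1 level of Tuba1c. Replicates 2 and 4 held 166 and 115 CPM (1258 and 784 counts), within the chronic 72 h range of 112 to 171 CPM, while replicate 1 had 0 counts and replicate 3 had 5 counts, or 0.601 CPM, within the healthy range. A count of 0 in a library of this size allows up to 3 counts. The group mean of 70.3 CPM ± 83.4 (SD, n = 4) describes none of its libraries. Tuba1b held 326, 341, 250 and 235 CPM in the same 4 libraries, with no such split.

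**Figure D1:**
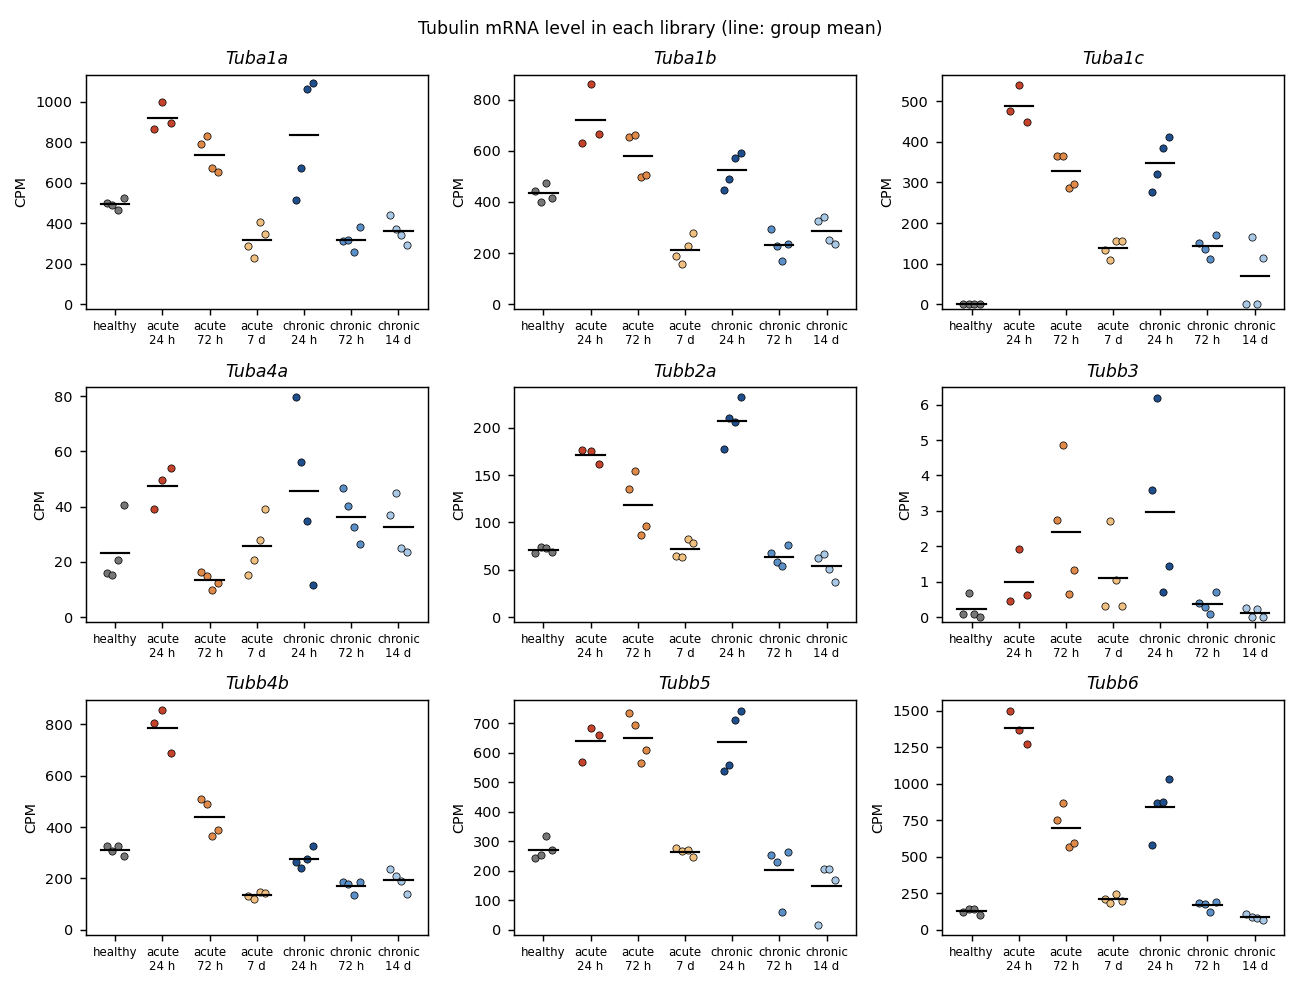
Levels of 9 tubulin genes (vertical axis, CPM, linear from 0, 1 panel per gene) in each library (points) with the group mean (line), by group on the horizontal axis. Tuba1c stood between 0.506 and 1.21 CPM in healthy HSCs and between 450 and 539 at acute 24 h, and split into high and near-0 libraries at chronic 14 d, while Tubb6 went from 104 to 143 CPM up to 1270 to 1500.

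The ratio of Tuba1c counts to Tuba1b counts was followed across groups, since much of the sequence is common to both. It was 0.00106 to 0.00293 in healthy libraries, and 0.624 to 0.757 at acute 24 h, 0.555 to 0.585 at acute 72 h and 0.564 to 0.702 at acute 7 d. In chronic libraries it was 0.618 to 0.693 at 24 h, 0.516 to 0.729 at 72 h and 0 to 0.491 at 14 d. Apart from chronic 14 d, the ratio thus took 1 range in injured cells and another, far lower, in healthy cells, although Tuba1b itself was abundant in both. Healthy libraries held 400 to 476 CPM of Tuba1b, a gene with which Tuba1c shares 40.3% of its stretches.

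Processed pseudogenes of alpha tubulin also received counts, and their ratios to Tuba1b were added after seeing the data. The 5 with counts of this size were Gm14150, Gm17383, Gm3226, Gm3756 and Gm6682, which share 63%, 100%, 73.7%, 52.1% and 47.1% of their stretches with other genes. Over all libraries the ratio to Tuba1b was 0.388 to 0.497 for Gm14150, 0.337 to 0.489 for Gm17383 and 0.352 to 0.482 for Gm3226, and it was 0.221 to 0.343 for Gm3756 and 0.2 to 0.282 for Gm6682. These stayed within narrow ranges in healthy and injured cells alike, unlike the Tuba1c ratio. The pseudogene counts summed to 707 CPM ± 30.5 (SD, n = 4) in healthy and 1280 ± 144 (n = 3) in acute 24 h libraries, so a share of the reads of the alpha-1 family was counted outside the named genes. Whether the near absence of Tuba1c in healthy cells came from the cells or from how reads of the family were divided was not tested.

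**Figure D2:**
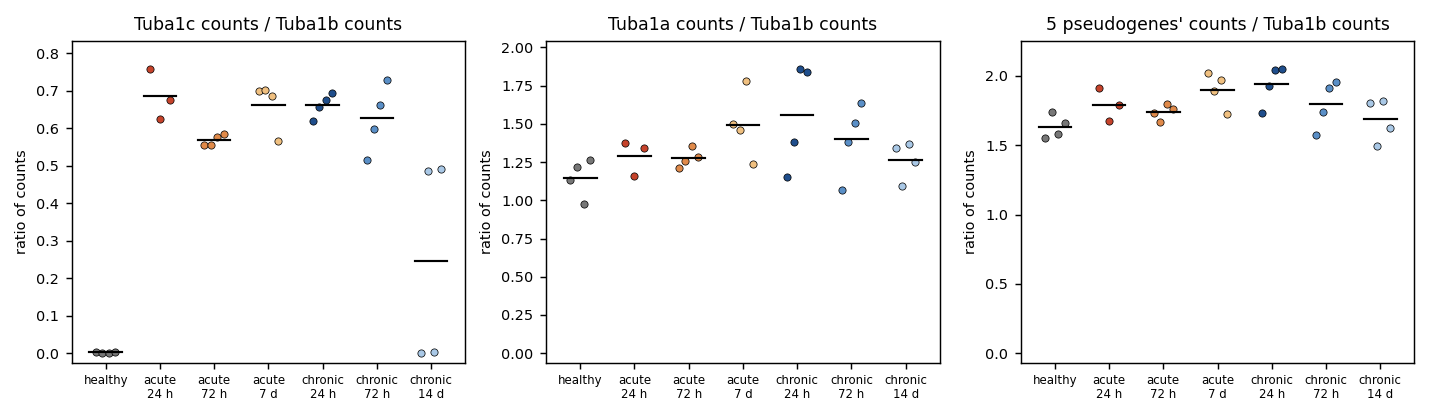
Ratio of the counts of Tuba1c, of Tuba1a and of the 5 pseudogenes summed to those of Tuba1b (vertical axes, linear from 0, no unit) in each library (points) with the group mean (line), by group. The Tuba1c ratio lay at or below 0.00293 in healthy libraries and at or above 0.516 in injured libraries other than chronic 14 d, while the Tuba1a and pseudogene ratios showed no such step.

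The sum of Tuba1a, Tuba1b and Tuba1c does not change where a read counted once is moved among the 3 genes. It does depend on whether shared reads were dropped, counted in several genes or given to pseudogenes, which is not known. It contains Tuba1c, whose means were 0.804 CPM in healthy and 489 in acute 24 h libraries and whose rise chose the list. Tuba1a had means of 494 and 919 CPM in these groups, and Tuba1b of 434 and 720. The sum therefore carries the selected difference and is a description without a test. It was 929 CPM ± 27.6 (SD, n = 4) in healthy HSCs and 2130 ± 237 (n = 3) at acute 24 h, 1640 ± 220 (n = 4) at acute 72 h and 666 ± 141 (n = 4) at acute 7 d. Chronic groups held 1710 ± 414 at 24 h, 692 ± 112 at 72 h and 719 ± 129 at 14 d (n = 4 each). The sum was thus highest at 24 h in both courses and below the healthy mean from 7 d of the acute and 72 h of the chronic course.

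After a single injection, 4 of the 8 tested tubulins other than Tuba1c were higher at 24 h than in healthy HSCs and none was lower, where the calls over all genes were 9.41% higher and 12.5% lower. A gene was called where edgeR's quasi-likelihood test gave a Benjamini-Hochberg adjusted p below 0.05 over all genes tested and a change of more than 2-fold. The called genes were Tubb6, Tubb4b, Tubb2a and Tubb5, all beta tubulins. The median log2 fold change of the 8 was 1.25, beside -0.12 over all genes.

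Tubb6, the class V beta tubulin, showed the greatest change of the tested members. Healthy libraries held 124, 140, 143 and 104 CPM and acute 24 h libraries 1500, 1370 and 1270 CPM. Each acute library was above all healthy ones. The fold change was 10.8, or 3.43 ± 0.21 (SE) on the log2 scale, with an adjusted p of 1.97e-10 in edgeR's quasi-likelihood test. Tubb6 had no 75-base stretch in common with another gene, so shared reads of that length cannot enter its count.

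Tubb4b, a beta tubulin of most cell types that is also used in cilia, held 326, 305, 326 and 286 CPM in healthy and 806, 856 and 689 CPM in acute 24 h libraries. The groups did not overlap and the fold change was 2.52 (log2 1.33 ± 0.17 SE, edgeR adjusted p 2.07e-06). Tubb2a, best known from neurons, held 67.6, 74.5, 73.5 and 68.5 CPM in healthy and 177, 176 and 162 CPM in acute 24 h libraries. It was 2.42-fold higher without overlap (edgeR adjusted p 1.83e-05). The pseudogene Tubb4b-ps1 kept a ratio to Tubb4b of 0.249 to 0.292 over all libraries, and Tubb2a-ps2 kept one to Tubb2a of 0.0683 to 0.107.

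Tubb5, the class I beta tubulin found in nearly all cells, held 244, 254, 320 and 272 CPM in healthy and 570, 685 and 661 CPM in acute 24 h libraries. Each acute library was above every healthy one, and the fold change was 2.34 (log2 1.23 ± 0.46 SE, edgeR adjusted p 0.0424). The fit of all 27 libraries includes, for Tubb5, a chronic 14 d library at 18.1 CPM beside 168 to 207 in the others and a chronic 72 h library at 62.2 CPM beside 229 to 265. With only the healthy and acute 24 h libraries in the fit, the adjusted p was 0.000753. In the fit of all groups the call was lost without any 1 of the 4 healthy or 3 acute 24 h libraries (adjusted p 0.057 to 0.102, log2 1.18 to 1.31).

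Tuba1a and Tuba1b differed by less than 2-fold. Tuba1a, an alpha tubulin of developing neurons, held 501, 487, 465 and 525 CPM in healthy and 864, 999 and 895 CPM in acute 24 h libraries, and Tuba1b, the common alpha tubulin of dividing and resting cells, held 444, 400, 476 and 414 and then 630, 863 and 667 CPM. Both were above the healthy range in all 3 libraries, with log2 fold changes of 0.89 ± 0.22 and 0.73 ± 0.2 (SE) and edgeR adjusted p of 0.00257 and 0.006. They passed the p threshold but not the fold threshold. Tuba4a, whose gene does not encode the final tyrosine of the other alpha tubulins, had an adjusted p of 0.0684, with 16, 15.3, 20.5 and 40.6 CPM in healthy and 39, 49.5 and 54 CPM in acute 24 h libraries, where healthy replicate 4 overlapped the acute ones. It was called without that replicate (log2 1.46, adjusted p 0.0146) and in the fit of the 2 groups alone (log2 1.1, adjusted p 0.0467). Tubb3 had 0.445, 1.91 and 0.615 CPM on 5, 22 and 7 counts at acute 24 h and was called only without healthy replicate 2 (log2 3.84, adjusted p 0.0229).

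At 72 h after the single injection, Tubb6 and Tubb5 were called higher than in healthy cells and 0 tubulins lower, beside 8.23% higher and 4.33% lower of all genes. The 8 tested members, Tubb3 included, had a median log2 fold change of 0.65, beside 0 over all genes. Tubb6 held 755, 870, 568 and 597 CPM, above all healthy libraries and 5.46-fold higher (edgeR adjusted p 3.4e-08). Tubb5 held 735, 694, 565 and 609 CPM, also without overlap (log2 1.26 ± 0.44 SE, edgeR adjusted p 0.041). Its call was lost without any 1 of the 8 libraries compared (adjusted p 0.0573 to 0.089) and had an adjusted p of 0.00131 in the fit of the 2 groups alone. Tubb3, the neuronal class III beta tubulin, held 2.75, 4.85, 0.65 and 1.32 CPM, on 31, 56, 8 and 17 counts, beside 0.0907, 0.683, 0.0843 and 0 CPM on 1, 7, 1 and 0 counts in healthy libraries. Its groups overlapped. The log2 difference of 3.45 ± 1.01 (SE) is a description without a test, since only injured libraries carried Tubb3 past the filter. It was 3.19 without healthy replicate 3 and 2.84 without acute 72 h replicate 2. Tubb4b, at 508, 489, 365 and 390 CPM, remained above the healthy range with a log2 difference of 0.49 (edgeR adjusted p 0.0235), under the fold threshold.

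At 7 d the called changes were decreases. Of the 8 tested members 0 were called higher and 2 lower than in healthy cells, where 9.23% of all genes were higher and 5.64% lower, and the median log2 fold change was -0.01, beside 0.01. Tubb4b held 133, 119, 148 and 142 CPM, below all healthy libraries and 2.29-fold lower (edgeR adjusted p 7.56e-06). Tuba1b held 190, 156, 227 and 277 CPM, likewise without overlap and 2.04-fold lower (edgeR adjusted p 0.000315), close to the 2-fold limit. It was under that limit without healthy replicate 3 or acute 7 d replicates 1 or 2 (log2 -0.98, -0.97 and -0.91). Tubb3, again as a description without a test, differed by 2.33 on the log2 scale and by 3.98 without healthy replicate 2. Tubb6 at 212, 187, 245 and 200 CPM was still above the healthy range, with a log2 difference of 0.73 ± 0.19 (SE) and an edgeR adjusted p of 0.0074. Tubb5 at 279, 266, 271 and 247 CPM lay inside the healthy range of 244 to 320. Macrophage and cholangiocyte markers were high in these libraries, as given above.

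Between successive acute times, 1 tubulin was called from 24 h to 72 h, where 11.2% of all genes were higher and 3.76% lower at 72 h. It was Tuba4a, which fell 3.55-fold from 39, 49.5 and 54 CPM to 16.5, 15, 9.84 and 12.2 CPM without overlap (edgeR adjusted p 0.00355). Tubb6 and Tubb4b lay lower in all 4 libraries at 72 h than in the 3 at 24 h, with log2 differences of -0.98 and -0.84 (edgeR adjusted p 0.000954 and 0.000638), under 2-fold. Without acute 24 h replicate 3 or acute 72 h replicates 1 or 2 Tubb6 passed the limit (log2 -1.04, -1.02 and -1.11), as it did in the fit of the 2 groups alone (log2 -1.04). The median log2 difference of the 9 tested members was -0.54, beside 0.07 over all genes.

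From 72 h to 7 d, 4 of the 9 fell and 0 rose, beside 2.73% of all genes lower and 5.08% higher, and the median was -1.24, beside -0.04. The 4 were Tubb6 (3.31-fold lower, edgeR adjusted p 6.47e-06), Tubb4b (log2 -1.69 ± 0.16 SE), Tuba1b (log2 -1.45 ± 0.19 SE) and Tuba1a (log2 -1.22 ± 0.21 SE), and none of them overlapped between the groups. Tuba1a went from 791, 828, 671 and 650 CPM to 285, 228, 404 and 344. Tuba1c differed by -1.24 ± 0.88 (SE) and had an adjusted p of 0.379 in the fit of all libraries, which includes the split chronic 14 d group, whose part in this p was not tested. In a fit of the 2 groups alone the adjusted p was 0.00271 for a log2 difference of -1.22. Tubb5 was in the same position, with -1.29 and an adjusted p of 0.0531 in the fit of all libraries and 0.00121 in the fit of the 2 groups.

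**Figure D3:**
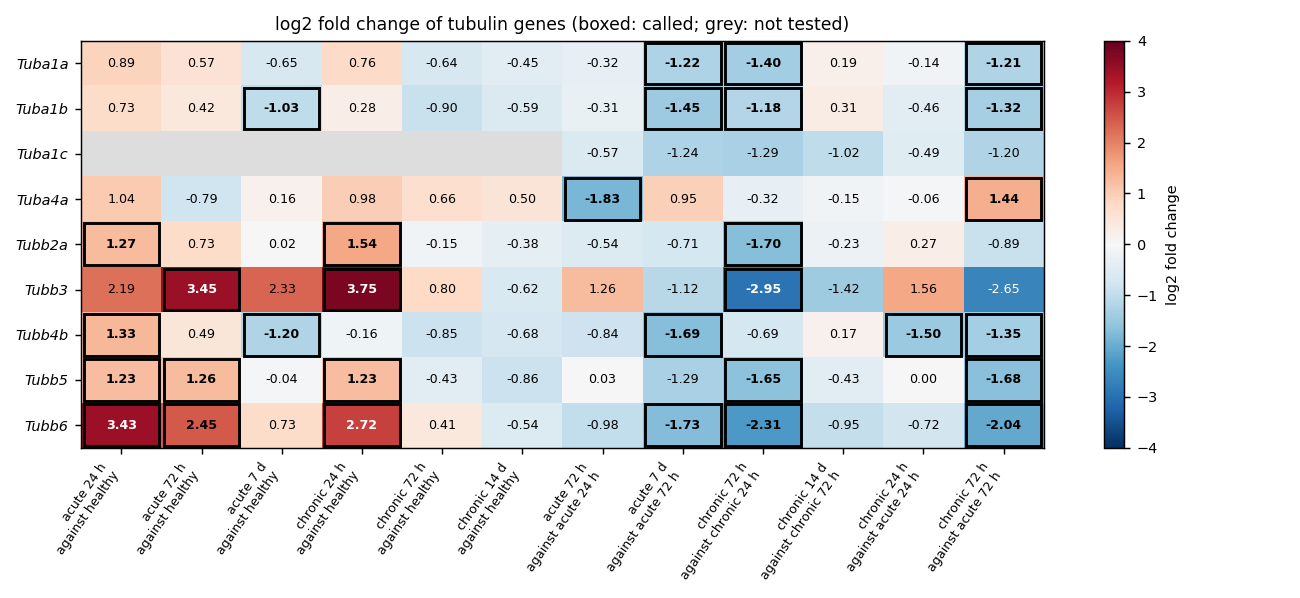
Log2 fold changes from edgeR's quasi-likelihood fit of all libraries, with genes as lines of the grid and the 12 comparisons along the horizontal axis. Red is higher and blue lower, a black box marks a called change and grey marks Tuba1c against healthy cells, which was not tested. Boxed values of Tubb3 are a description without a test. Tubb6 reached 3.43 at acute 24 h and 2.72 at chronic 24 h against healthy, and Tubb4b was 1.33 in the first and -0.16 in the second.

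After 4 weeks of injections, Tubb6, Tubb2a and Tubb5 were called higher at 24 h than in healthy HSCs and no tubulin was lower. Of all genes 11.2% were higher and 8.11% lower. The median log2 fold change of the 8 tested tubulins, Tubb3 included, was 1.1, beside -0.03. Tubb6 held 580, 868, 877 and 1030 CPM, above all healthy libraries and 6.58-fold higher (edgeR adjusted p 1.16e-09). Tubb2a held 178, 210, 206 and 233 CPM, 2.91-fold higher without overlap (edgeR adjusted p 7.95e-07). Tubb5 held 539, 560, 712 and 742 CPM, also without overlap (log2 1.23 ± 0.44 SE, edgeR adjusted p 0.0349). Its call was lost without any 1 healthy library or chronic 24 h replicate 3 or 4 (adjusted p 0.0504 to 0.0801), and its adjusted p was 0.00135 in the fit of the 2 groups alone. Tubb3 stood at 3.6, 6.18, 0.702 and 1.44 CPM (24, 45, 8 and 18 counts), with the 2 libraries under 9 M total counts at the top. Its log2 difference of 3.75 ± 1.02 (SE) rested on low counts. It is a description without a test, since only injured libraries carried Tubb3 past the filter. With the higher-depth libraries alone the difference was 2.33.

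Tubb4b at chronic 24 h held 266, 240, 277 and 327 CPM and overlapped the healthy range of 286 to 326 (log2 -0.16 ± 0.15 SE, edgeR adjusted p 0.454). Tuba1a held 516 and 674 CPM in the lower-depth replicates 1 and 2 and 1060 and 1090 CPM in replicates 3 and 4, so its log2 difference from healthy of 0.76 (edgeR adjusted p 0.00644) was 1.13 (adjusted p 0.000636), past the fold threshold, with the higher-depth libraries alone. Tubb6, at 2.92, and Tubb2a, at 1.64, were also called with those libraries alone. Tuba4a, at 79.7, 56.3, 34.7 and 11.7 CPM, was called without healthy replicate 4 (log2 1.4, adjusted p 0.0149) or chronic 24 h replicate 4 (log2 1.3, adjusted p 0.00921) and not with all libraries (log2 0.98, adjusted p 0.0731). It was 0.28 (adjusted p 0.642) with depth class as a term and 0.01 (adjusted p 0.996) in the higher-depth libraries alone.

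By 72 h after the last injection 0 of the 8 tested tubulins were called against healthy cells in either direction, by edgeR or by DESeq2's Wald test, beside 7.88% of all genes higher and 4.2% lower. Of the 8, 4 had an unadjusted p below 0.05 in edgeR, and the median log2 fold change was -0.29, beside 0. Here and below, the share of all genes at an unadjusted p below 0.05 is not given. Such counts therefore have no background beside them and are not compared with the shares of called genes. Tuba1b held 294, 229, 170 and 234 CPM and Tubb4b 187, 178, 136 and 187 CPM, both below every healthy library but under 2-fold (log2 -0.9 and -0.85, edgeR adjusted p 0.0012 and 0.000369). Tuba1b was called lower in the higher-depth libraries alone, at -1.07, and without chronic 72 h replicate 1, at -1.04. Tubb6 held 183, 177, 125 and 194 CPM, where the healthy range was 104 to 143 (log2 0.41, edgeR adjusted p 0.133).

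At 14 d after the last injection 0 tubulins were called against healthy cells by either tool, beside 4.55% of all genes higher and 1.17% lower. Of the 8, 5 had an unadjusted p below 0.05, and the median log2 fold change was -0.57, beside -0.03. Tubb6 held 112, 90.5, 83.5 and 65.4 CPM, lower than or at the low end of the healthy range (log2 -0.54, edgeR adjusted p 0.0785). Tubb4b held 237, 210, 189 and 140 CPM, below all healthy libraries (log2 -0.68, edgeR adjusted p 0.00681). All libraries of this group were of lower depth and all healthy ones of higher depth, so depth and group cannot be told apart here, except by the fit with depth class as a term, which draws on the other chronic groups.

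Over the chronic course most of the change came between 24 h and 72 h after the last injection. Of the 9 tested members 6 fell, Tubb3 included, and 0 rose, where 3.65% of all genes were lower and 4.72% higher. The median log2 difference was -1.4, beside 0. Tubb6 was 4.95-fold lower at 72 h (edgeR adjusted p 1.23e-07) and Tubb2a fell by 1.7 on the log2 scale to 67.6, 57.9, 53.8 and 76 CPM (edgeR adjusted p 2.13e-06). Tuba1a fell by 1.4, Tubb5 by 1.65 and Tuba1b by 1.18 on the log2 scale, each without overlap, with edgeR adjusted p of 6.86e-05, 0.012 and 0.000134. Tubb3 stood at 0.0778 to 0.705 CPM at 72 h, too low to pass the filter on low counts. It passed through other injured libraries, so its fall is a description without a test. The log2 difference ran from -3.56 to -2.31 with 1 library left out. Tubb4b differed by -0.69 (edgeR adjusted p 0.00355) and Tuba1c by -1.29 ± 0.88 (SE, edgeR adjusted p 0.362), the latter with an adjusted p of 0.0045 in the fit of the 2 groups alone.

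Both depth classes held 2 libraries of each of these groups. Within the higher-depth class 6 tubulins were called lower, and within the lower-depth class 2 were, Tubb6 (log2 -1.97, edgeR adjusted p 0.0237) and Tubb2a (log2 -1.59, edgeR adjusted p 0.035). The 2 fits hold different other groups, and their shares over all genes are not given here. Their counts of calls are therefore not compared. Tuba1a and Tuba1b differed by -0.88 and -0.8 in the lower-depth class (edgeR adjusted p 0.104 and 0.132) and by -1.73 and -1.5 in the higher-depth class. All 4 genes therefore lay lower at 72 h in both classes. From 72 h to 14 d 0 tubulins were called by either tool, with 1 of the 9 at an unadjusted p below 0.05, beside 0.261% of all genes higher and 0.64% lower and medians of -0.23 and -0.01. That gene was Tubb6 (log2 -0.95 ± 0.19 SE, edgeR adjusted p 0.011), whose 4 libraries at 14 d, 65.4 to 112 CPM, were all below the 72 h range of 125 to 194. It passed the 2-fold limit without chronic 72 h replicate 3 (log2 -1.07) or chronic 14 d replicate 1 (log2 -1.09).

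The first and the repeated injury were compared at matched times. At 24 h 1 of the 9 tested tubulins differed, where 10.9% of all genes were higher and 3.05% lower in chronic injury, and the median was -0.14, beside 0.01. It was Tubb4b, 2.82-fold lower in chronic than in acute injury (log2 -1.5 ± 0.17 SE, edgeR adjusted p 1.09e-06) with no overlap between 240 to 327 and 689 to 856 CPM. The value was -1.41 (adjusted p 0.000234) in the higher-depth libraries alone. Tubb6 was lower in all 4 chronic than in all 3 acute libraries but by less than 2-fold (log2 -0.72, edgeR adjusted p 0.013). Tuba1c differed by -0.49 with an adjusted p of 0.757, and 0.0701 in the fit of the 2 groups alone.

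At 72 h 6 of the 9 differed, 5 lower and 1 higher in chronic injury, where 4.01% of all genes were lower and 5.11% higher, and the median was -1.32, beside -0.03. Tubb6 was 4.11-fold lower (edgeR adjusted p 4.13e-07), and Tubb5 (log2 -1.68), Tubb4b (log2 -1.35), Tuba1b (log2 -1.32) and Tuba1a (log2 -1.21) were lower as well, all without overlap between the groups. With depth class as a term Tuba1a was under the fold limit, at -0.98. Tuba1c differed by -1.2 with an adjusted p of 0.399, and 0.00288 in the fit of the 2 groups alone. Tuba4a was higher in chronic injury, at 46.7, 40.1, 32.5 and 26.3 CPM beside 9.84 to 16.5 CPM (log2 1.44 ± 0.42 SE, edgeR adjusted p 0.0207). Its call was lost with depth class as a term (log2 0.91, adjusted p 0.143), in the higher-depth libraries alone (log2 1.18, adjusted p 0.119), and without acute 72 h replicate 3 or 4 or chronic 72 h replicate 1 (adjusted p 0.0572, 0.0506 and 0.0594).

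Whether the step from 24 h to 72 h differed between the courses was tested directly, as an interaction term in the fit of all libraries, an alternative added after seeing the data. The step was more negative in the chronic course for Tubb6, by 1.32 ± 0.28 (SE) on the log2 scale (a difference of -1.32, edgeR adjusted p 0.00317), and for Tubb2a (-1.16 ± 0.26, adjusted p 0.00557), Tuba1a (-1.07 ± 0.3, adjusted p 0.0222) and Tuba1b (-0.87 ± 0.27, adjusted p 0.043). It did not pass for Tubb5 (-1.68 ± 0.64, adjusted p 0.0969), Tuba4a (1.51 ± 0.6, adjusted p 0.111), Tubb3 (-4.21 ± 1.38, adjusted p 0.052), Tubb4b (0.15 ± 0.23, adjusted p 0.759) or Tuba1c (-0.71 ± 1.28, adjusted p 0.808). Of all genes 10.8% passed the same test at an adjusted p below 0.05. For those 4 tubulins levels at 72 h were thus nearer to the 24 h levels after the single injection than after the repeated ones.

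The makeup of the beta tubulin counts changed with injury. Shares are of counts, not corrected for gene length, and are compared for the same gene across groups. The 6 beta genes summed to 782 CPM ± 56.3 (SD, n = 4) in healthy HSCs and 2980 ± 171 (n = 3) at acute 24 h, 1910 ± 313 at acute 72 h and 686 ± 46.5 at acute 7 d, and to 1960 ± 324 at chronic 24 h, 609 ± 158 at chronic 72 h and 486 ± 79.1 at chronic 14 d. Tubb6 held 14.2% to 18.1% of these in healthy libraries, 44.3% to 49.2% at acute 24 h, 35.2% to 39.3% at acute 72 h and 29.2% to 32.7% at acute 7 d. In chronic libraries it held 37% to 46.1% at 24 h, 26.4% to 33.1% at 72 h and 15.7% to 26% at 14 d, which overlaps the healthy range. Tubb6 thus kept a larger share at 7 d and at chronic 72 h even where the beta sum was near the healthy one. The 33.1% came from chronic 72 h replicate 3, where the beta sum was 377 CPM and Tubb5 held 16.5%. The 26% came from chronic 14 d replicate 1, where Tubb5 held 4.22%, and the other chronic 14 d libraries held 15.7% to 15.9%. Tubb4b held 37.8% to 42.8% in healthy, 24.8% to 27.7% at acute 24 h and 12.7% to 17% at chronic 24 h.

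The ratio of Tubb5 to Tubb4b counts was also followed by group. It was 0.748 to 0.982 in healthy and 0.707 to 0.96 in acute 24 h libraries, 1.42 to 1.56 at acute 72 h, 1.75 to 2.24 at acute 7 d and 2.02 to 2.57 at chronic 24 h. At chronic 72 h it was 0.457 to 1.42 and at chronic 14 d 0.0763 to 1.2. The low end of each range was a library low in Tubb5, at 62.2 CPM in chronic 72 h and 18.1 CPM in chronic 14 d. The other libraries of both groups lay above the healthy range. The healthy and acute 24 h ranges overlapped, while the later acute times lay above both. Among the alpha genes Tuba1c held 0.0525% to 0.124% of the counts in healthy libraries and 18.8% to 23.7% in every injured library outside chronic 14 d.

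Per kilobase of exon, levels can be ordered between genes. In healthy HSCs Tuba1a stood at 274 CPM per kb ± 14 (SD, n = 4) and Tuba1b at 231 ± 18, followed by Tubb4b at 149 ± 9.2, Tubb5 at 82.1 ± 10.1, Tubb6 at 52.5 ± 7.35 and Tubb2a at 44.1 ± 2.14. Tuba4a at 6.24 ± 3.22, Tuba1c at 0.352 ± 0.132 and Tubb3 at 0.115 ± 0.169 were far below, and Tubb6 and Tubb2a were separated by about the spread of Tubb6. At acute 24 h Tubb6 stood at 566 ± 48.4 (n = 3), next to Tuba1a at 510 ± 39.1, and the difference was of the size of their spread. Tuba1b at 384 ± 66.7 and Tubb4b at 375 ± 41 came next and did not differ beyond their spread, and Tuba1c at 214 ± 19.9 and Tubb5 at 192 ± 18.3 were likewise close. Tubb2a at 107 ± 5.15, Tuba4a at 12.8 ± 2.08 and Tubb3 at 0.53 ± 0.429 were lowest. Tubb6 and Tuba1a thus formed the top pair at acute 24 h, with the level of Tuba1a uncertain in how reads were split.

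**Figure D4:**
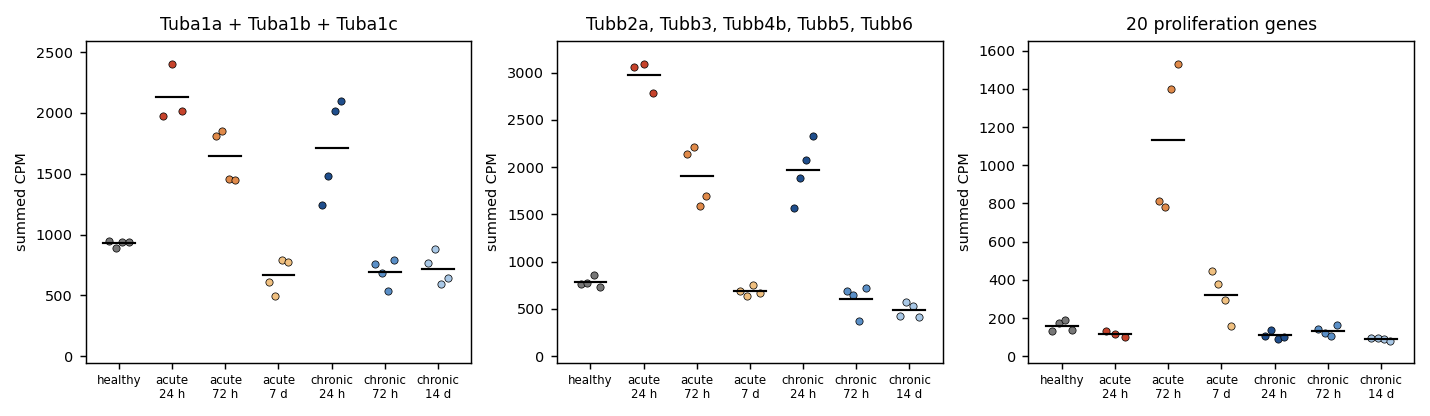
Summed CPM (vertical axes, linear from 0) of the 3 alpha-1 genes, of the beta genes with counts and of 20 proliferation genes in each library (points) with the group mean (line), by group. The tubulin sums were highest at acute 24 h (means of 2130 and 2980 CPM), while the proliferation sum was highest at acute 72 h, at 779 to 1530 CPM. The alpha-1 sum contains Tuba1c, whose rise from healthy cells chose the list.

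Dividing cells need tubulin for the spindle, so 20 proliferation genes were set beside the tubulins. They summed to 134 to 190 CPM in healthy, 99.1 to 133 in acute 24 h, 779 to 1530 in acute 72 h, 160 to 448 in acute 7 d and 88.7 to 139 in chronic 24 h libraries, and to 105 to 161 and 79.6 to 96.8 in chronic 72 h and 14 d libraries. At acute 72 h 19 of the 20 were called higher than in healthy cells (median log2 3.45), beside 8.23% of all genes. At acute 24 h and chronic 24 h, where the tubulin sums were high, 0 were higher and 6 and 8 were lower. Of all genes 12.5% and 8.11% were lower at these times, and 9.41% and 11.2% higher. The tubulin sums thus had their highest mean at acute 24 h and the proliferation sum at acute 72 h. At acute 72 h the tubulin sums were also above the healthy ones. Their means were 1640 beside 929 CPM for the alpha-1 genes, with Tuba1c included, and 1910 beside 782 CPM for the beta genes. Tubb5 was the abundant tubulin with a 72 h level as high as its 24 h level after acute injury, at 565 to 735 and 570 to 685 CPM (log2 0.03).

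Across the 27 libraries some tubulins varied together. These correlations of log2 CPM are a description, since the libraries share groups, depth classes and scaling. Tuba1a and Tuba1b had a Pearson r of 0.942, Tubb2a and Tubb6 of 0.925 and Tuba1b and Tubb4b of 0.923. Tuba1c had 0.656 with Tubb6 and 0.183 with Tuba1b. Both values include its difference between healthy and injured cells, which chose the list. Tuba4a had between -0.138 and 0.163 with the others, so its levels followed none of them.

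Of 10276 genes whose log2 CPM averaged 3 or more, those most like Tubb6 over the 27 libraries were Tpm3-rs7 (r 0.964), Lrrc59 (0.948), Eif5al3-ps (0.946), Frzb (0.942) and Hdgf (0.942). Among those most like Tuba1c were Gm7600 (0.852), Gm13408 (0.847), Gm12174 (0.842) and Vmp1 (0.832), and those most like Tubb5 were Ccn2 (0.83), Eif4g1 (0.797), Lgmn (0.794), Styx (0.789) and Gm8818 (0.781). The ranking for Tuba1c carries the difference between healthy and injured libraries that chose the list, and is no support for it. The likeness was closer for Tubb6 than for the others, and Tpm3-rs7, Eif5al3-ps and the Gm symbols are pseudogene or predicted-gene names. Tubb5, with its low chronic 14 d library, was 1 of 533 among 10081 genes with a mean of 10 CPM or more (5.29%) that had a library 5-fold or more under all others of its group.

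Of the 10 other tubulin genes of the mouse (Tuba3a, Tuba3b, Tuba8, Tubal3, Tubb1, Tubb4a, Tubg1, Tubg2, Tubd1 and Tube1) 6 were tested. Tuba8, an alpha tubulin of muscle and testis, had 0 counts in the 4 healthy libraries and 46, 27 and 15 counts at acute 24 h, or 4.1, 2.34 and 1.32 CPM. It was at least 9.6-fold higher, against a floor of 3 counts per healthy library. Tuba8 passed the filter on low counts only through the acute 24 h libraries, where it was high, so this is a description without a test. Tube1, the centriolar epsilon tubulin, had a mean of 3.57 CPM at acute 72 h and 0.633 in healthy cells (log2 2.48, edgeR adjusted p 0.0142). Tubb4a had 43 CPM at acute 72 h and 19.1 at acute 24 h (log2 1.17, edgeR adjusted p 0.00302). Tubg1, the gamma tubulin that nucleates microtubules, was lower at acute 7 d than at 72 h (log2 -1.11, edgeR adjusted p 0.00805) and at chronic 24 h than at acute 24 h (log2 -1.04, edgeR adjusted p 0.0106). It was under the 2-fold limit in the first without acute 72 h replicate 4 or acute 7 d replicate 2 (log2 -0.9 and -0.96) and in the second without acute 24 h replicate 2 or chronic 24 h replicate 3 (log2 -0.89 and -0.88).

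Genes that fold tubulin were called higher at acute 24 h. Of 22 chaperonin, prefoldin and cofactor genes, all tested, 6 were higher and 0 lower than in healthy cells, where 9.41% of all genes were higher and 12.5% lower, with a median log2 fold change of 0.85, beside -0.12 over all genes. The 6 were the CCT subunits Cct2, Cct3, Cct5, Cct6a, Cct7 and Tcp1, with log2 fold changes of 1.5, 1.15, 1.6, 1.22, 1.07 and 1.04. Cct2 lay between 15.3 and 26.8 CPM in healthy and between 49.7 and 64.7 at acute 24 h (edgeR adjusted p 1.93e-05), and Cct6a between 103 and 144 and between 252 and 325 (edgeR adjusted p 1.77e-05), both without overlap. Tcp1 was under the 2-fold limit without healthy replicate 2 or acute 24 h replicate 1 (log2 0.94 in each case). At acute 72 h Cct2 alone was called (log2 1.04), and not without healthy replicate 2 or acute 72 h replicate 2 (log2 0.94 and 0.95). At chronic 24 h 2 of the 22 were higher and 1 lower, which is no larger a share than the 11.2% and 8.11% of all genes. They were Cct5 (log2 1.1, edgeR adjusted p 0.0454), Cct2 (log2 1.03) and, on the lower side, Tbcel (log2 -1.01), which is known to destabilise tubulin. Each of these 3 calls was lost with 1 library left out. Cct5 was not called without healthy replicates 1, 3 or 4 or chronic 24 h replicates 2 or 4 (log2 0.86 to 1.15, edgeR adjusted p 0.0703 to 0.152), Cct2 without healthy replicates 1, 2 or 3 or chronic 24 h replicates 2 or 4 (log2 0.91 to 0.99), and Tbcel without healthy replicate 1 or chronic 24 h replicates 2 or 4 (log2 -0.9, -0.92 and -0.94). At acute 7 d, chronic 72 h and chronic 14 d edgeR called 0 of the 22, with 3, 4 and 4 at an unadjusted p below 0.05. The calls over all genes were, in the same order, 9.23% higher and 5.64% lower, 7.88% and 4.2%, and 4.55% and 1.17%. Tcp1 fell from chronic 24 h to 72 h (log2 -1.18, and -0.98 without chronic 24 h replicate 2) and was lower at chronic than at acute 72 h (log2 -1.14), and Tbcc was lower at chronic than at acute 24 h (log2 -1.02), a call lost without acute 24 h replicates 1 or 2 or chronic 24 h replicate 3 (log2 -0.97, -0.91 and -0.98).

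Genes of proteins that bind and stabilise microtubules were called in both directions. Of 17 such genes, 1 was higher and 5 lower at acute 24 h, 2 and 3 at acute 72 h, 3 and 3 at acute 7 d, 2 and 3 at chronic 24 h, 1 and 5 at chronic 72 h and 1 and 1 at chronic 14 d, all against healthy cells. The calls over all genes were, in the same order, 9.41% higher and 12.5% lower, 8.23% and 4.33%, 9.23% and 5.64%, 11.2% and 8.11%, 7.88% and 4.2%, and 4.55% and 1.17%. Mapt, which encodes tau, was lower in every injured group, from 118 to 274 CPM in healthy cells to 4.56 to 10.8 CPM at chronic 24 h, where it was lowest, and 30 to 39.6 CPM at chronic 14 d. Dclk1, a doublecortin-like kinase that binds microtubules, was higher in every injured group, from 0.953 to 4.19 CPM in healthy cells to 127 to 198 CPM at chronic 24 h and 15.8 to 38.4 CPM at chronic 14 d. No injured library of either gene reached the healthy range. Dclk1 was higher at chronic than at acute 24 h (log2 2.72, edgeR adjusted p 7.01e-05) and fell from chronic 24 h to 72 h (log2 -2.53).

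Map2, a dendritic microtubule protein in neurons, was lower than in healthy cells at acute 24 h (log2 -1.18), acute 7 d (log2 -1.74), chronic 24 h (log2 -2.48) and chronic 72 h (log2 -1.99). Map1b, of growing axons, was higher at acute 72 h (log2 1.78), acute 7 d (log2 2.33) and chronic 24 h (log2 1.87). Camsap3, which binds minus ends, was lower at acute 24 h, acute 72 h, acute 7 d, chronic 24 h and chronic 72 h (log2 -1.82, -1.1, -1.19, -1.24 and -1.12). Dcx was lower at acute 24 h (log2 -4.73, 0.0594 CPM beside 1.87) and higher at acute 7 d (log2 2.48), at low counts. At chronic 14 d Map2 and Camsap3 were not called (log2 -0.98 and -0.51). Several of these calls were lost with 1 library left out. Map2 at acute 24 h was under 2-fold without healthy replicate 4 or acute 24 h replicate 2 (log2 -0.99 and -0.97). Camsap3 was so at acute 72 h without healthy replicate 3 or acute 72 h replicate 4 (log2 -0.96 and -0.98) and at chronic 72 h without healthy replicate 3 or chronic 72 h replicates 3 or 4 (log2 -0.98, -0.98 and -0.91). Dcx at acute 24 h was not called without healthy replicate 2 or acute 24 h replicates 2 or 3 (edgeR adjusted p 0.0581 to 0.0636) and was at -7.29 without acute 24 h replicate 1. At acute 7 d Dcx was not called without healthy replicates 1, 3 or 4 or any 1 of the acute 7 d libraries (edgeR adjusted p 0.0589 to 0.104) and was at 3.61 without healthy replicate 2.

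**Figure D5:**
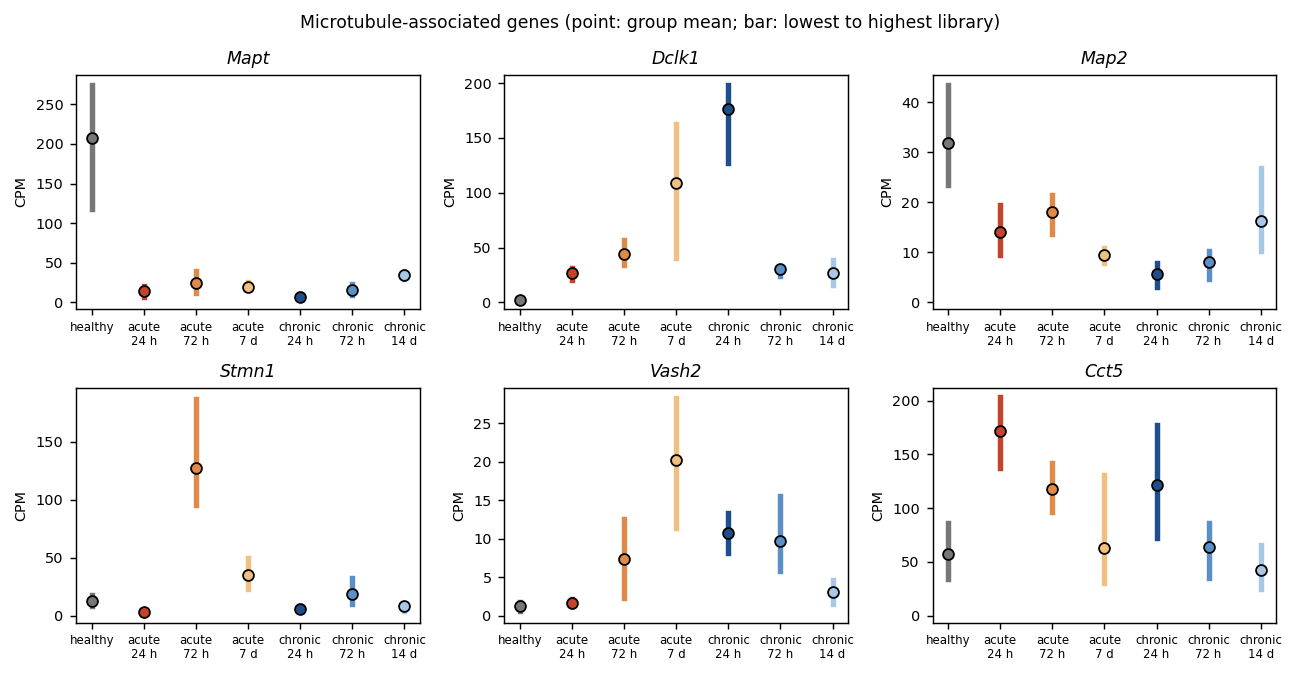
Levels (vertical axes, CPM, linear from 0) of the microtubule partner genes Mapt, Dclk1, Map2, Stmn1, Vash2 and Cct5 by group, with the group mean as a point and the lowest to the highest library as a bar. Mapt was at 118 to 274 CPM in healthy cells and 4.56 to 10.8 at chronic 24 h, Dclk1 at 0.953 to 4.19 and 127 to 198, and Stmn1 was highest at acute 72 h, at 95.8 to 187.

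Of 17 genes that destabilise or sever microtubules 12 were tested. Stmn1, or stathmin, which binds free tubulin dimers and is known from dividing cells, was lower at acute 24 h than in healthy cells (0.79 to 5.25 beside 8.25 to 17.8 CPM, log2 -2.16, edgeR adjusted p 0.00207) and higher at acute 72 h (95.8 to 187 CPM, log2 3.33, edgeR adjusted p 1.48e-05) and acute 7 d (log2 1.49). It was lower again at chronic 24 h (log2 -1.24). Without acute 24 h replicate 1 the acute 24 h value was -2.96. The call at acute 7 d was lost without acute 7 d replicate 3 (log2 1.27, edgeR adjusted p 0.0513), and that at chronic 24 h without healthy replicates 2 or 3 or chronic 24 h replicates 1, 3 or 4 (edgeR adjusted p 0.0788 to 0.109). Its highest group was acute 72 h, as for the proliferation sum. The mitotic kinesins Kif2c and Kif18a were higher at acute 72 h (log2 5.64 and 2.46), Kif2c also at acute 7 d (log2 3.72), with Kif2c at 6.29 and 4.37 without healthy replicate 3, and at acute 24 h Fign, of the severing enzyme fidgetin, was lower (log2 -1.47). At chronic 72 h and chronic 14 d 0 of the 12 were called against healthy cells by edgeR, with 1 at an unadjusted p below 0.05 in each. Of all genes 7.88% were higher and 4.2% lower at chronic 72 h, and 4.55% and 1.17% at chronic 14 d.

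Enzymes that modify tubulin were not set apart from all genes by their number of calls. Of 24 genes 19 were tested. Against healthy cells 0 were higher and 1 lower at acute 24 h, 1 and 1 at acute 72 h and 1 and 0 at acute 7 d. At chronic 24 h 2 and 2 were called, and at chronic 72 h 1 and 1. The calls over all genes were, in the same order, 9.41% higher and 12.5% lower, 8.23% and 4.33%, 9.23% and 5.64%, 11.2% and 8.11%, and 7.88% and 4.2%. Vash2, a vasohibin that removes the final tyrosine of alpha tubulin, was higher at acute 72 h (log2 2.56), acute 7 d (log2 4.01), chronic 24 h (log2 3.09) and chronic 72 h (log2 2.96), from 0.607 to 1.81 CPM in healthy cells to 11.4 to 28.2 CPM at acute 7 d. Its relative Vash1 was lower at acute 24 h (log2 -1.28), acute 72 h (log2 -1.3) and chronic 24 h (log2 -1.42), where its mean was 1.31 CPM beside 3.49 in healthy cells. All 3 calls of Vash1 were lost without healthy replicate 2 or 3. Those at acute 24 h and 72 h were lost as well without acute 24 h replicates 1 or 2 and without acute 72 h replicates 2, 3 or 4 (edgeR adjusted p 0.0507 to 0.176 over these fits), and Vash1 at acute 24 h was at -1.91 without acute 24 h replicate 3. Ttll7, a polyglutamylase, was lower at chronic 24 h (log2 -1.4) and chronic 72 h (log2 -1.65), and Ttll11 was higher at chronic 24 h (log2 2.32). At chronic 14 d edgeR called 0 of the 19, with 3 at an unadjusted p below 0.05, beside 4.55% of all genes higher and 1.17% lower.

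Of 16 genes for plus-end proteins, the giant linker Macf1 was lower at acute 7 d (log2 -1.82), chronic 24 h (log2 -1.5), chronic 72 h (log2 -1.63) and chronic 14 d (log2 -1.23), and Clasp2 was lower at acute 24 h (log2 -1.09). Tacc3, of the spindle, was higher at acute 72 h (log2 3.4) and acute 7 d (log2 1.59), and Apc was lower at both times (log2 -1.32 at each). The calls of Apc were lost without healthy replicates 3 or 4, at 72 h also without healthy replicate 2 or acute 72 h replicates 2, 3 or 4, and at 7 d also without acute 7 d replicates 1, 3 or 4 (edgeR adjusted p 0.0513 to 0.0894). Slain1 had a mean of 0 CPM in healthy and of 2.72 CPM in chronic 14 d libraries. Among 26 tested motor genes of 28, Kif5a was higher at acute 24 h (log2 2.71). The axonal kinesin Kif1a had means of 0.302 CPM in healthy and 7.08, 5.97 and 2.55 CPM in chronic 24 h, 72 h and 14 d libraries (log2 4.48, 4.24 and 3.01). It passed the filter on low counts only through injured libraries, where it was high, so this is a description without a test. Without healthy replicate 3 its values were 6.59, 6.35 and 5.12. At chronic 14 d the value was 2.6 to 3.08 without healthy replicates 1, 2 or 4 or chronic 14 d replicates 1, 2 or 3. Kif5a was not called without healthy replicates 1 or 4 or any 1 of the acute 24 h libraries (edgeR adjusted p 0.0588 to 0.0735), and was at 3.44 without healthy replicate 2. Dync1h1, the dynein heavy chain, was lower at chronic 72 h (log2 -1.15), a call lost without healthy replicates 1, 2 or 3 or chronic 72 h replicates 2, 3 or 4 (log2 -1.16 to -0.89, edgeR adjusted p 0.057 to 0.125). At acute 72 h edgeR called 0 of the 26 against healthy cells, with 6 at an unadjusted p below 0.05, beside 8.23% of all genes higher and 4.33% lower.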

How the data were processed

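The authors sequenced single-end reads of 75 bases and, per the labels and the study's methods, used FastQC for quality checks, STAR for alignment to the mouse genome GRCm38, and StringTie for assembly. The deposited table holds raw whole-number counts per Ensembl gene for each library. How the assembly became counts, the strand setting and the treatment of reads that match several genes are not given in the sources used here. All 27 columns matched a labelled sample. Symbols, positions and sequences came from GENCODE M21, where 53274 of 53379 IDs had a symbol and 105 had none, and 16198 genes had no count.

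Counts were fitted once for all 27 libraries in edgeR 4.0.16 (R 4.3.3, limma 3.58.1) with TMM scaling, filterByExpr by group and a robust quasi-likelihood F test, with 12 comparisons and Benjamini-Hochberg adjustment over 18758 genes. Log2 CPM used a prior count of 2. DESeq2 1.42.0, other scalings, filters, depth classes (limit 9 M counts), fits of 2 groups and fits without 1 library were alternatives. The p-values measure the spread between these samples. On simulated counts for 18758 genes with 200 changed 4-fold (log2 2), 69.5% were recovered with 2 false calls for acute 24 h against healthy, and 64% with 3 false calls for chronic 24 h against healthy and with 5 for chronic 72 h against chronic 24 h.

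The tubulin genes and all gene lists were chosen with earlier results of these data known. Named genes were all 10 members, the other mouse tubulins, up to 3 called higher and 3 called lower of each microtubule list in a comparison, and the 5 genes most correlated with Tuba1c, Tubb6 and Tubb5. Some items that this rule names, and the alpha tubulin sequences, are not reported here. Of the 6 chaperonin genes called at acute 24 h, 3 were named beyond this rule after their values were seen. Tubb6 and 1 pseudogene lie on chromosome 18 and their sequence is not shown. Figures were drawn with matplotlib 3.10.9 in Python 3.11.15.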

Additional observations from a re-analysis of the deposited data

Results flagged for a closer look

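Tubb3 in healthy replicate 2 stood apart from the other healthy libraries, at 0.683 CPM beside 0 to 0.0907 CPM. The gap to its nearest neighbour was 0.867 of the group's range, above Dixon's critical value at 95% for 4 libraries. It was the only one of 54 pairs of a tubulin and a group of 4 libraries to do so, and chance gives about 1 in 20. The value rests on 7 counts beside 0 or 1.

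For 4 tubulins the step from 24 h to 72 h differed between the chronic and the acute course in a test of the interaction term, an alternative added after seeing the data. The difference, chronic minus acute on the log2 scale, was -1.07 for Tuba1a, -0.87 for Tuba1b, -1.16 for Tubb2a and -1.32 for Tubb6. No explanation was tested.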

How the results depend on the processing

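Outside the fits without 1 library, 1040 of 1114 values of the tubulins under other settings kept their direction and their side of the threshold, 21 lost a call, 45 gained one and 8 changed sign. Of 790 values with 1 library left out, 732 kept both, 35 lost a call, 11 gained one and 12 changed sign. The shares of all genes called under these settings are not given here. The counts below therefore describe only how the tubulin calls depend on the setting. Without the fold minimum the called tubulins numbered 6 for acute 72 h, 4 for acute 7 d, 3 for chronic 72 h and 2 for chronic 14 d against healthy, 4 for acute 72 h against 24 h, 1 for chronic 14 d against 72 h and 2 for chronic against acute 24 h.
The count for acute 7 d against healthy was 1 by library size alone, without the filter on low counts and in the higher-depth libraries alone, that for chronic 24 h against healthy was 2 with depth class as a term, and that for chronic 72 h against healthy was 1 in the higher-depth libraries alone. For acute 72 h against 24 h it was 2 without the filter, in the higher-depth libraries alone and in the fit of the 2 groups, and for chronic 72 h against 24 h it was 2 in the lower-depth libraries alone. With 1 library left out the counts ran from 1 to 2 for acute 72 h against healthy (3 with all libraries), 1 to 3 for acute 7 d against healthy, 0 to 1 for chronic 72 h against healthy, 1 to 2 for acute 72 h against 24 h and 0 to 1 for chronic 14 d against 72 h. Tubb3 is included in the counts of this section. The genes behind these changes, mainly Tubb5, Tubb3, Tuba1b and Tubb6, are given beside the results.

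Signs changed for small differences that were not called. On the log2 scale Tubb5 was 0.07 for acute 7 d against healthy by library size alone, and for acute 72 h against 24 h it was -0.04 without the filter, -0.02 in the higher-depth libraries and -0.03 in the fit of the 2 groups. Tuba4a was -0.56 for chronic 14 d against healthy with depth class as a term and 0.37 for chronic 72 h against 24 h in the higher-depth libraries, and Tuba1a for chronic against acute 24 h was 0.03 and 0.19 under these settings. With 1 library left out, values against healthy ran from -0.11 to 0.58 for Tuba4a, -0.05 to 0.09 for Tubb2a and -0.09 to 0.05 for Tubb5 at acute 7 d and from -1.17 to 1.03 for Tubb3 at chronic 14 d. They ran from -0.05 to 0.08 for Tubb5 between acute 72 h and 24 h, from -0.61 to 0.09 for Tuba4a between chronic 72 h and 24 h, and from -0.36 to 0.04 for Tuba1a and -0.48 to 0.21 for Tuba4a between chronic and acute 24 h. The causes were not tested.

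A check for pairing by replicate number showed none, but it could not exclude pairing, since it used only the genes of greatest spread within groups. Replicates 1 and 2 of both chronic 24 h and chronic 72 h shared lower depth. Their macrophage marker sums were 1360 to 1870 CPM, beside 333 to 888 in replicates 3 and 4. Over 2000 genes, deviations from the group means correlated at -0.136 to 0.124 (median -0.001) in 78 pairs with the same number and at -0.288 to 0.327 (median -0.002) in 234 pairs with other numbers. With a replicate block, the call of Tubb5 was lost for acute 24 h against healthy (log2 1.26, adjusted p 0.054) and acute 72 h against healthy (log2 1.26, adjusted p 0.0537). Tubb3, described without a test, was at log2 2.47 for acute 7 d against healthy. The block changed no other call of a tubulin. Depth limits Tubb3, at 0 to 56 counts a library, and Tuba1c in healthy cells, at 6 to 14, and intervals of such counts cover counting error only.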
